A study of Citrus maxima and Citrus sinensis with 8 samples.

Results

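Cytochrome P450 enzymes (P450s) form one of the largest enzyme families of plants. Each carries a heme iron that splits molecular oxygen and puts a single oxygen atom into its substrate, with electrons passed on by NADPH-cytochrome P450 reductase in the membrane of the endoplasmic reticulum. P450s take part in the synthesis of sterols, brassinosteroids, lignin precursors and suberin monomers, and in the turnover of hormones and defence compounds. Of the 30151 genes in the deposited tables, 168 have a description with the words cytochrome P450 in any spelling of upper and lower case, and these were taken as the family. By description they are 167 P450 genes, which include Cs1g26280 (P450 like_TBP), and the NADPH-cytochrome P450 reductase Cs3g19550. Only 43.0% of all genes have a description, so P450 genes without one were not counted.

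The libraries were made from root tips, called roots below, of 'Xuegan' *C. sinensis*, which tolerates aluminum (Al), and of 'Shatian pummelo' *C. grandis*, which does not. Seedlings in sand culture got nutrient solution with 0 mM Al (control) or 1 mM Al (+Al) for 18 weeks. Each of the 4 groups had 2 libraries, and each library pooled the roots of 5 seedlings, so that the spread between libraries is one between pools. The values are FPKM, fragment counts scaled to transcript length and to the mapped reads of the library. Reads of both species were aligned to the sequence of *C. sinensis*.

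Among the 168 members, 24 were listed at 0 FPKM in all 8 libraries and 103 were above 0 in all 8. The mean over the libraries was at least 1 FPKM for 97 members, at least 10 FPKM for 45 and at least 100 FPKM for 7. The description gave a family number for 58 members, from 19 families. By these numbers 27 belonged to the 71 clan, 13 to the 85 clan, 11 to the 86 clan, 5 to the 72 clan and 2 to clans of a single family, while 110 were described only as a P450. By their gene IDs, 121 members lay on pseudochromosomes, most of them on chromosome 5 (43) and chromosome 3 (31), 45 were unplaced and 2 were assembled from the reads. In all, 62 members stood in 14 runs of at least 3 neighbouring IDs. Such neighbours can be close copies that share reads, so their separate values are uncertain.

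Summed over all genes, FPKM ranged from 713378 to 859570 per library. *C. grandis* +Al library 1 stood apart. It had the lowest sum and the lowest relative depth, 0.707 of that of *C. sinensis* control library 1 against 0.812 to 0.966 in the other 6, and the median gene was 0.39 lower on the log2 scale in it than in *C. grandis* +Al library 2. In the other groups this median gap between replicates was at most 0.14. The tissue label was checked with markers by description. The summed FPKM of 18 photosynthesis genes was 41.5 to 68.6 and that of 8 root-enriched genes was 109 to 173. The summed FPKM of 9 genes of dividing cells was 867 to 910 in *C. sinensis* control roots, 1324 to 1334 in *C. sinensis* +Al roots, 671 to 712.3 in *C. grandis* control roots and 589 to 695 in *C. grandis* +Al roots. That of 14 laccase genes, which act in wall lignification, was 71.02 to 74.6, 124 to 132, 42.9 to 43.7 and 45.0 to 49.1 in the same order. In such pooled tissue, fewer cells of a type and less RNA per cell cannot be told apart, and the part of these shifts in the P450 results was not tested.

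A few members held a large part of the P450 transcript. The 8 with the highest mean held 72.7% of the mean FPKM summed over the family, and without orange1.1t05809 and Cs1g26280 the other 6 held 49.6% of the rest. The largest of all, orange1.1t05809, described only as a P450, varied too much between libraries to place. It was listed at 297 and 1485 FPKM in *C. sinensis* control roots, 626 and 0 in *C. sinensis* +Al roots, 4401 and 1457 in *C. grandis* control roots and 1036 and 555 in *C. grandis* +Al roots. Cs1g26280, described as P450 like_TBP, was at 4212 and 186 FPKM in the *C. grandis* +Al libraries and at 163 to 555 in the other 6. Both genes were left out of the sums that follow but stay in the counts of members tested and called. Summed over the other 166 members, P450 FPKM was 2845 to 2860 in *C. sinensis* control roots, 2289 to 2298 in *C. sinensis* +Al roots, 2334 to 2358 in *C. grandis* control roots and 1726 to 2197 in *C. grandis* +Al roots. The +Al libraries lay below the control libraries in both species. As a share of all FPKM the members held 0.343% to 0.352% and 0.283% to 0.286% in control and +Al roots of *C. sinensis*. In *C. grandis* they held 0.272% to 0.284% and 0.242% to 0.276%, and there the groups overlapped. These sums and shares are given as values, with no test.

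Of the next members by level, Cs7g15540, orange1.1t03688 and Cs3g21580 were lower in every +Al library than in every control library of *C. sinensis*. Cs7g15540, a CYP87A gene, was the highest of the stable members, at 699 and 666 FPKM in *C. sinensis* control roots and 378 and 372 in +Al roots. It was at 356 and 417 in *C. grandis* control roots and 158 and 233 in +Al roots. The groups did not overlap in either species. The log2 fold change was -0.86 ± 0.05, adjusted p = 0.000269 in *C. sinensis*, short of the fold limit used below, and -1.01 ± 0.21, adjusted p = 0.000447 in *C. grandis*, where it passed by little. It did not pass in *C. grandis* without control library 1, control library 2 or +Al library 1 (-0.72, adjusted p = 0.0682 without the last). Errors after ± are standard errors of the fit.

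orange1.1t03688, described as CYP716B1-like, belongs to a family with several triterpene oxidases. It was at 444 and 458 FPKM in *C. sinensis* control roots and 219 and 221 in +Al roots, and at 225 and 203 and 65.7 and 109 in the control and +Al roots of *C. grandis*. Every +Al library was below every control library of its species. It fell in both species (log2 fold change -1.04 ± 0.04, adjusted p = 0.000164 in *C. sinensis*, and -1.33 ± 0.24, adjusted p = 3.94e-05 in *C. grandis*). Without *C. grandis* +Al library 1 the latter was -0.97, adjusted p = 0.0293, just under the fold limit. Cs3g21580, described only as a P450, was at 299.8 and 317 FPKM in *C. sinensis* control roots, 95.5 and 87.4 in +Al roots, 259.8 and 266 in *C. grandis* control roots and 142 and 203 in +Al roots. It fell in *C. sinensis* (-1.75 ± 0.06, adjusted p = 0.000135), and in *C. grandis* the change missed the fold limit (-0.63 ± 0.21, adjusted p = 0.0369). The other 3 of the 8, orange1.1t02083, orange1.1t02087 and the CYP87A gene Cs7g15460, are described below.

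**Figure D1:**
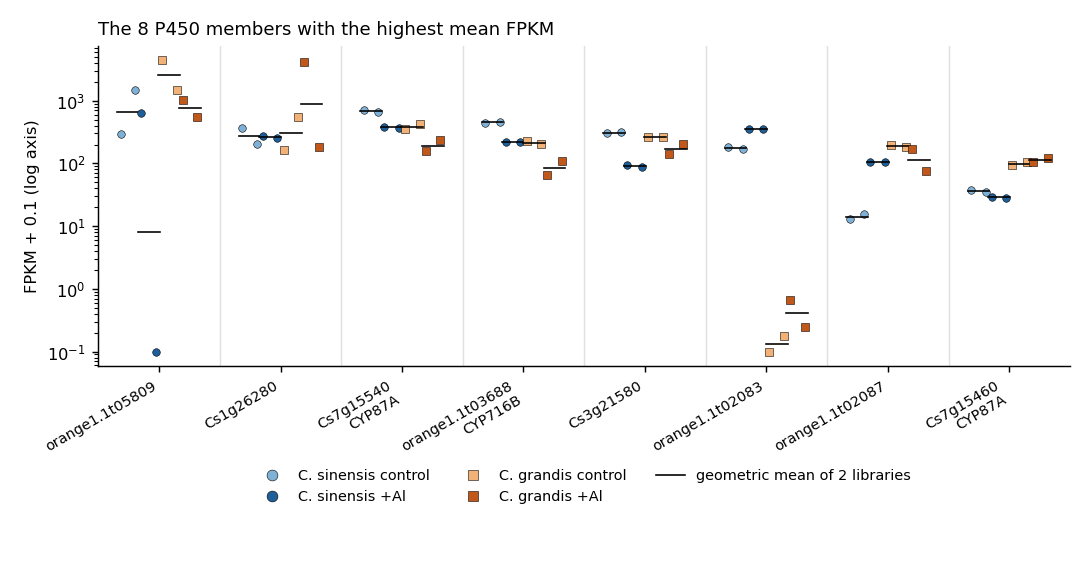
FPKM + 0.1 (log axis) of the 8 P450 members with the highest mean, in each of the 8 libraries. Points are libraries (circles for C. sinensis, squares for C. grandis, darker for +Al) and bars are geometric means of 2 libraries. Cs7g15540, orange1.1t03688 and Cs3g21580 are lower in +Al roots of both species, and the replicates of orange1.1t05809 and Cs1g26280 lie far apart in several groups.

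To find which P450 genes responded to Al, +Al and control roots were compared within each species. A gene was called, and is said to rise or fall, when its adjusted p (limma, Benjamini-Hochberg over all genes tested) was no more than 0.05 and its log2 fold change on log2(FPKM + 0.1) was 1 or more in size. Only genes whose mean reached 1 FPKM in one of the groups compared were tested. Since 0.1 is added to each value, changes of low genes are understated. In *C. sinensis* 87 members were tested. Of these, 11 rose, 12.6% of them against 4.46% of all genes tested, and 21 fell, 24.1% against 4.06%. The median log2 fold change of the members was -0.41, with 29 above 0 and 58 below, while that of all 19152 genes tested was -0.002. 

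Among the members that rose in *C. sinensis*, the run from orange1.1t02079 to orange1.1t02087 gave 5 of the 11. The others were Cs9g17460, Cs3g07440, Cs3g22160, Cs5g07230 (CYP94A2), orange1.1t01456 (CYP79A2) and orange1.1t00542 (CYP78A6). Cs9g17460, described only as a P450, had the largest log2 fold change. It was at 0.523 and 0.321 FPKM in control roots and 6.63 and 6.72 in +Al roots (3.72 ± 0.29, adjusted p = 0.000696). Cs3g07440, also without a family, was at 11.2 in each library FPKM in control roots and 47.8 and 49.7 in +Al roots (2.11 ± 0.07, adjusted p = 0.000105). Both +Al libraries were far above both control libraries for either gene. Cs3g22160, which was named after its value was seen, had a log2 fold change of 1.91.

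Leaving out orange1.1t05536, which was listed at 0 FPKM in both +Al libraries, the log2 fold changes of the members that fell in *C. sinensis* ran from -2.85 to -1.04. Members of the 71 clan, the largest group by family number, made up 7 of the 21, and of its 14 members tested 3 rose (background 4.06% of all genes lower and 4.46% higher, as above). Cs3g24170, described as CYP82C4, which in Arabidopsis makes the iron chelator sideretin from fraxetin, was at 11.1 and 12.1 FPKM in control roots and 1.25 and 1.84 in +Al roots (-2.85 ± 0.22, adjusted p = 0.000619). Cs3g21550, described as CYP83B1, which in Arabidopsis oxidises aldoximes on the way to indole glucosinolates, was at 66.3 and 75.1 FPKM and 18.3 and 13.8 (-2.14 ± 0.15, adjusted p = 0.000488). Both genes were still above 1 FPKM in both +Al libraries. Cs5g25060, without a family, was at 5.22 and 5.17 FPKM in control roots and 1.12 and 0.867 in +Al roots (-2.28 ± 0.23, adjusted p = 0.00148). Cs7g15500, a CYP87A gene next to the abundant Cs7g15540, was at 48.7 and 45.3 FPKM and 17.8 and 16.3 (-1.46 ± 0.08, adjusted p = 0.000269). Smaller falls were those of Cs3g23010, described as CYP81D1-like (-1.17), orange1.1t01519, described as CYP77A3-like, of a family that oxidises fatty acids (-1.11), and orange1.1t00025, described as CYP71A26-like (-1.37). Cs3g25780 (-1.52), Cs5g09460 (-1.24), Cs5g25920 (-1.78) and Cs8g20910 (-1.55), named after their values were seen, also fell. The remaining falls are given with the abundant members above or below.

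The count in *C. sinensis* ranged from 8 to 12 for genes that rose and from 15 to 20 for genes that fell when each library was left out in turn. Of the 27 calls of named members, the 5 that did not hold were those of orange1.1t00542 without control library 2 (1.53, adjusted p = 0.0538), +Al library 1 or +Al library 2, of Cs5g06320 without control library 2 or +Al library 1, of orange1.1t02083 without control library 2, of Cs3g05310 without control library 2 (-0.87, adjusted p = 0.0848), +Al library 1 or +Al library 2, and of Cs3g09020 without either control library or +Al library 1 (-1.05, adjusted p = 0.054). With a spread estimated over all 8 libraries, those of orange1.1t01519 (adjusted p = 0.136), Cs8g09390 (0.137), Cs3g09120 (0.13), orange1.1t02083 (0.187) and Cs5g06320 (0.0677) were not called.

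In *C. grandis* 99 members were tested. Of these, 18 rose, 18.2% of them against 5.20% of all genes tested, and 16 fell, 16.2% against 7.25%. The median log2 fold change of the members was 0.05, with 50 above 0 and 49 below, and that of all 18677 genes tested was -0.01. Most calls of named members in *C. grandis* were lost without some single library, a larger part than in *C. sinensis*. The counts of members also depended on single libraries. They are given without those of all genes in the same fits, so they do not show whether the excess of members stayed. The number that rose was 10 without +Al library 2, and the number that fell was 8 without control library 1, 6 without control library 2 and 8 without +Al library 1.

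The run from Cs5g14800 to Cs5g14920 gave 5 of the 18 members that rose in *C. grandis*. The largest rise among members seen in all 4 groups was that of orange1.1t00542, described as CYP78A6, which in Arabidopsis promotes the growth of seeds and other organs. It was at 2.05 and 1.59 FPKM in *C. grandis* control roots and 22.1 and 32.6 in +Al roots (3.82 ± 0.34, adjusted p = 2.39e-11). In *C. sinensis* it was at 0.575 and 0.248 FPKM in control roots and 1.78 and 1.93 in +Al roots (2.01 ± 0.47, adjusted p = 0.0242), and it was the only member called higher in both species. orange1.1t05688, described as CYP71A1, was listed at 0 FPKM in all 4 *C. sinensis* libraries. In *C. grandis* it was at 1.43 and 0 in control roots and 30.9 and 14.5 in +Al roots. The groups did not overlap, but with a listed 0 in the control no fold change is given, and the call did not hold without +Al library 1 or +Al library 2. orange1.1t05667, which the deposited annotation places in phenylpropanoid synthesis, was at 20.1 and 18.9 FPKM in *C. grandis* control roots and 60.5 and 60.2 in +Al roots (1.62 ± 0.27, adjusted p = 1.13e-05). Cs4g14140, without a family, was at 29.9 and 26.9 and 71.5 and 98.7 FPKM (1.56 ± 0.26, adjusted p = 1.39e-05). Smaller rises, named after their values were seen, were those of Cs1g04220 (1.38), Cs3g08680 (1.66), Cs4g06120 (1.43) and orange1.1t00261 (1.12).

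The only electron donor among the members was called higher in *C. grandis*. A more abundant reductase, Cs4g03510, lies outside the members counted and did not rise there. It is given below with the electron partners. Cs3g19550, the NADPH-cytochrome P450 reductase among the members, was at 10.2 and 7.702 FPKM in *C. grandis* control roots and 14.5 and 22.8 in +Al roots (1.02 ± 0.32, adjusted p = 0.0199). In *C. sinensis* it was at 9.65 and 9.74 and 8.099 and 8.77 (-0.20 ± 0.10, adjusted p = 0.19). The rise in *C. grandis* did not hold without any 1 of its 4 libraries, with log2 fold changes of 0.70 to 1.35.

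Of the 16 members that fell in *C. grandis*, the largest falls were those of Cs3g07440, Cs5g07230 and Cs2g03520, 3 genes that did not fall in *C. sinensis* and are described next. Cs3g15590, without a family, was at 21.5 and 18.8 FPKM in control roots and 7.67 and 8.83 in +Al roots (-1.28 ± 0.30, adjusted p = 0.00212). That call did not hold without control library 1 (-1.18, adjusted p = 0.382) or control library 2. orange1.1t01321, described as DDWF1 after a pea P450, was at 8.37 and 10.9 FPKM and 1.96 and 6.07 (-1.44 ± 0.40, adjusted p = 0.00851). Its call did not hold without control library 1, control library 2 or +Al library 1 (-0.65, adjusted p = 0.211 without the last). orange1.1t05809 was also called lower in *C. grandis* (-1.74 ± 0.26, adjusted p = 2.49e-06). Its replicates lay far apart, and it was not called without control library 1 (-0.94, adjusted p = 0.0835), +Al library 1 or +Al library 2, nor after rescaling the libraries (adjusted p = 0.12) or with a spread estimated over all 8 libraries (adjusted p = 0.729). Cs5g25880 (-1.98) and the assembled gene XLOC_008388 (-2.49), named after their values were seen, also fell in *C. grandis*.

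Beside the calls in each species, the fits of 79 members tested in both can be set side by side. They were below 0 in both species for 28 members and above 0 in both for 11. They were below 0 in *C. sinensis* and above 0 in *C. grandis* for 26, and the other way round for 14. The difference in response, taken as *C. grandis* minus *C. sinensis*, was tested in 107 members. It was called higher for 29, 27.1% of them against 6.27% of all genes tested, and lower for 14, 13.1% against 11.3%. The median difference was 0.54 on the log2 scale for the members and 0.005 for all 20158 genes tested. The higher count was well above the background and the lower count close to it. Without 1 library the number of members called ranged from 16 to 60. It was 16 and 18 without *C. sinensis* control library 1 and 2, 20 and 17 without *C. sinensis* +Al library 1 and 2, and 27 and 23 without *C. grandis* control library 1 and 2. Of the 32 members named here with a called difference, 13 stayed called without each of the 8 libraries. These 13 were Cs2g03520, Cs3g07440, Cs3g09040, Cs3g09140, Cs3g15590, Cs5g07230, Cs5g14800, Cs5g14880, Cs7g15500, Cs9g17460, orange1.1t01456, orange1.1t02087 and orange1.1t05667. The other 19 are given in the closing section with the libraries they depend on.

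**Figure D2:**
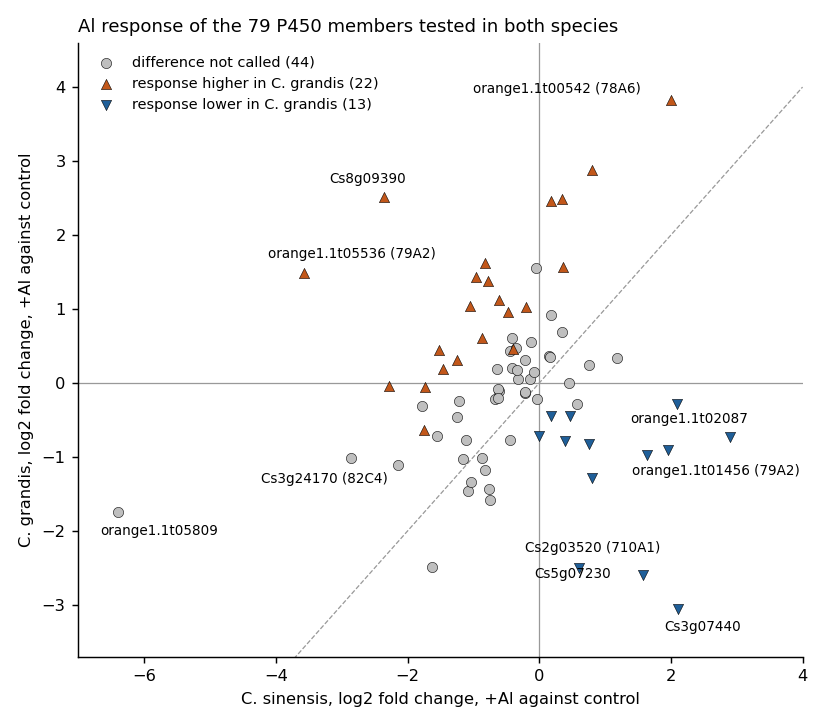
Log2 fold change of +Al against control in C. sinensis (x axis) and C. grandis (y axis) for the 79 P450 members tested in both species. Each symbol is a gene. Upward triangles (22) and downward triangles (13) mark genes whose response was called higher or lower in C. grandis, circles (44) those with no call, and the dashed line marks equal responses.

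Several large differences were in genes called in opposite directions in the species. Cs3g07440 rose in *C. sinensis*, as given above, and in *C. grandis* it was at 24.04 and 19.1 FPKM in control roots and 2.18 and 2.85 in +Al roots (-3.05 ± 0.34, adjusted p = 3.80e-09). The difference in response was -5.17 ± 0.27, adjusted p = 0.000103. In all 4 groups its replicates lay close together and no groups of a species overlapped. Cs5g07230 is described as CYP94A2, a fatty acid hydroxylase in vetch. It was at 23.97 and 22.6 FPKM in *C. sinensis* control roots and 67.7 and 71.4 in +Al roots (1.57 ± 0.07, adjusted p = 0.000162), and at 17.9 and 15.6 and 2.39 and 3.03 in *C. grandis* (-2.59 ± 0.34, adjusted p = 1.89e-07). The difference was -4.16 ± 0.24, adjusted p = 0.000136. In control roots the difference between the species in this gene was not called (-0.48 ± 0.17, adjusted p = 0.0698), and +Al roots were far apart.

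orange1.1t01456 is described as CYP79A2, which in Arabidopsis turns phenylalanine into its aldoxime. It was at 17.3 and 17.8 FPKM in *C. sinensis* control roots and 67.7 and 69.6 in +Al roots (1.96 ± 0.06, adjusted p = 0.000103). In *C. grandis* it was at 11.2 and 10.02 and 6.88 and 4.58, a change that was not called (-0.91 ± 0.34, adjusted p = 0.0615). The difference was -2.87 ± 0.29, adjusted p = 0.000974. Cs2g03520, CYP710A1, makes stigmasterol from sitosterol in Arabidopsis. It was at 26.7 and 24.3 FPKM in *C. sinensis* control roots and 38.9 and 38.6 in +Al roots, below the fold limit (0.60 ± 0.07, adjusted p = 0.00273). In *C. grandis* it was at 24.5 and 25.3 and 3.58 and 5.23 (-2.50 ± 0.32, adjusted p = 9.36e-08), and the difference was -3.10 ± 0.27, adjusted p = 0.000638. Its control levels were nearly equal in the species. Cs9g17460, which rose in *C. sinensis*, was at 0.564 and 0.724 FPKM in *C. grandis* control roots and 0.0761 and 0.224 in +Al roots, too low to be tested there, and the difference was -5.36 ± 0.61, adjusted p = 0.00162.

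In the other direction, Cs8g09390 and orange1.1t05536 fell in *C. sinensis* and were called higher in *C. grandis*. Cs8g09390, without a family, was at 3.35 and 3.15 FPKM in *C. sinensis* control roots and 0.682 and 0.443 in +Al roots (-2.36 ± 0.32, adjusted p = 0.00403). In *C. grandis* it was at 5.43 and 4.11 in control roots and 8.06 and 92.4 in +Al roots, so that the size of the rise rests on +Al library 2 (2.51 ± 0.51, adjusted p = 0.000296, and without that library 0.76, adjusted p = 0.182). orange1.1t05536, described like orange1.1t01456 as CYP79A2, was at 1.02 and 1.16 FPKM in *C. sinensis* control roots and listed at 0 in both +Al libraries. In *C. grandis* it was at 4.16 and 1.197 and 3.31 and 12.8, where the groups overlapped and the call (1.49 ± 0.49, adjusted p = 0.0302) did not hold without control library 2 (0.64, adjusted p = 1), +Al library 1 or +Al library 2. Cs3g15590 had a log2 fold change of 0.80 in *C. sinensis* and a difference of -2.08 ± 0.22, adjusted p = 0.00129. Cs5g25060 and Cs7g15500 fell in *C. sinensis*, and in *C. grandis* had log2 fold changes of -0.04 and 0.19. Their differences in response were 2.24 ± 0.41, adjusted p = 0.00988, and 1.65 ± 0.21, adjusted p = 0.00233. orange1.1t05667, which rose in *C. grandis*, was at 34.3 and 32.2 FPKM in *C. sinensis* control roots and 13.8 and 25.7 in +Al roots, and the difference was 2.44 ± 0.36, adjusted p = 0.00446.

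**Figure D3:**
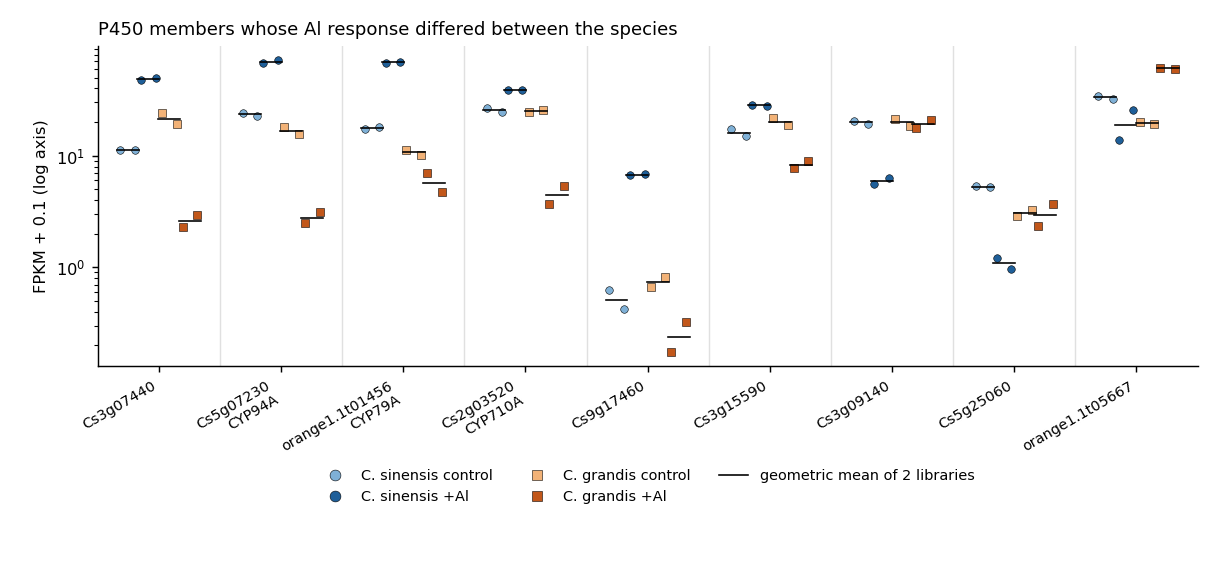
FPKM + 0.1 (log axis) of 9 P450 members whose Al response was called different between the species. Points are libraries and bars geometric means of 2 libraries, as in the plot of the abundant members. The first 6 genes are higher in +Al roots of C. sinensis and lower in +Al roots of C. grandis, and the last 3 are lower in +Al roots of C. sinensis.

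Members that fell in both species were Cs3g05310, Cs3g21550 (CYP83B1), Cs3g23010 (CYP81D1-like), Cs3g24170 (CYP82C4) and orange1.1t03688 (CYP716B1-like). In *C. grandis* Cs3g21550 was at 13.3 and 13.01 FPKM in control roots and 4.03 and 9.17 in +Al roots, and Cs3g23010 at 81.3 and 87.1 and 34.01 and 50.05. Neither call held without *C. grandis* +Al library 1, with values of -0.52, adjusted p = 0.166, and -0.75, adjusted p = 0.0428. The same calls did not hold without *C. grandis* control library 1 or control library 2. Cs3g24170 was at 20.1 and 24.8 FPKM in *C. grandis* control roots and 17.97 and 6.79 in +Al roots (-1.01 ± 0.34, adjusted p = 0.0338), which did not hold without control library 1, control library 2 or +Al library 2 (-0.31, adjusted p = 0.35 without the last). The difference between the species was 1.85 ± 0.59, adjusted p = 0.0685, not called.

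Of the 14 runs of neighbouring P450 genes, 4 are described first, picked because at least 3 of their members were called in 1 species. That several of their members were called in the same species follows from this choice. Reads shared between close copies can also make neighbours alike. The 5 members from orange1.1t02079 to orange1.1t02087 all rose in *C. sinensis*. Their FPKM summed to 202 to 211 in control roots and to 506 to 508 in +Al roots. orange1.1t02083, the highest, was at 180.4 and 170.0 FPKM in control roots and 355 and 352 in +Al roots (1.01 ± 0.05, adjusted p = 0.000222), and it passed the fold limit by little, with 0.97, adjusted p = 0.0125 without control library 2. orange1.1t02087 was at 12.7 and 15.7 FPKM and 105 and 106 (2.90 ± 0.11, adjusted p = 0.000135). orange1.1t02079, orange1.1t02081 and the CYP83B1-like orange1.1t02084 rose with log2 fold changes of 2.10, 1.64 and 1.22. The 2 libraries of each *C. sinensis* group gave nearly the same level for each of these genes in +Al roots.

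In *C. grandis* the same run looked different. Its sum was 225 to 251 FPKM in control roots and 97.8 to 224 in +Al roots. orange1.1t02084 was listed at 0 FPKM in all 4 *C. grandis* libraries and orange1.1t02083 was at 0 to 0.571, while orange1.1t02087 was at 199.6 and 181 in control roots and 170.5 and 76.7 in +Al roots. Of the 3 members tested in *C. grandis* none was called. The difference in response was called for orange1.1t02087 (-3.63 ± 0.45, adjusted p = 0.00223), orange1.1t02081 (-2.61 ± 0.52, adjusted p = 0.0133) and orange1.1t02079 (-2.38 ± 0.57, adjusted p = 0.0261). The last 2 were not called without any 1 of the 4 *C. sinensis* libraries or without *C. grandis* control library 1. Since reads of *C. grandis* had to match the *C. sinensis* genome, a lack of expression and a difference in sequence cannot be told apart for orange1.1t02083 and orange1.1t02084.

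The run from Cs5g14800 to Cs5g14920 on chromosome 5 showed the reverse. All 5 members rose in *C. grandis*, where their FPKM summed to 10.02 to 11.7 in control roots and 59.1 to 78.7 in +Al roots. In *C. sinensis* the sums were 8.38 to 9.09 and 10.9 to 11.6, and of the 3 members tested none was called. Cs5g14800, the highest, was at 6.94 and 6.45 FPKM in *C. grandis* control roots and 32.9 and 43.5 in +Al roots (2.48 ± 0.30, adjusted p = 2.43e-08). In *C. sinensis* it was at 4.86 and 4.27 and 5.71 and 5.89 (0.34 ± 0.14, adjusted p = 0.116). Cs5g14840, the member described as CYP72A, was at 2.37 and 1.46 FPKM in *C. grandis* control roots and 8.27 and 13.9 in +Al roots (2.46 ± 0.39, adjusted p = 6.70e-06), with an adjusted p of 0.0535 without +Al library 2. Cs5g14880, Cs5g14900 and Cs5g14920 had log2 fold changes of 3.22, 2.87 and 3.06 in *C. grandis*. Control roots there were near the added 0.1 FPKM for Cs5g14880 (0.319 and 0.239 FPKM) and Cs5g14920 (0.272 and 0.253). Over the other settings tried, the changes of these genes ranged from 1.80 to 3.75 and from 1.64 to 3.43. The difference in response was called for all 5 members, from 2.07 to 3.43. It depended on single libraries for Cs5g14840, Cs5g14900 and Cs5g14920, where the adjusted p without 1 library reached 0.0931, 0.0532 and 0.0541.

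The 7 members from Cs3g09020 to Cs3g09140 on chromosome 3 split. All 4 that were tested in *C. sinensis* fell, and the run summed to 45.8 to 47.2 FPKM in control roots and to 16.9 to 17.1 in +Al roots. Cs3g09140 was at 20.4 and 19.1 FPKM in *C. sinensis* control roots and 5.52 and 6.27 in +Al roots (-1.73 ± 0.11, adjusted p = 0.000399), and at 21.3 and 18.5 and 17.6 and 20.7 in *C. grandis* (-0.06 ± 0.29, adjusted p = 0.94). The difference in response was 1.67 ± 0.23, adjusted p = 0.00355. Cs3g09020, Cs3g09090 and Cs3g09120 fell in *C. sinensis* with log2 fold changes of -1.22, -1.45 and -1.09. Cs3g09030 and Cs3g09040 instead rose in *C. grandis*. Cs3g09040 was at 1.802 and 1.498 FPKM in *C. grandis* control roots and 6.55 and 11.1 in +Al roots (2.31 ± 0.40, adjusted p = 3.56e-05), against 0.617 and 0.631 and 0.168 and 0.120 in *C. sinensis*. Cs3g09030 was at 1.51 and 1.59 and 4.06 and 7.201 FPKM in *C. grandis* (1.74 ± 0.44, adjusted p = 0.00368), with an adjusted p of 0.0753 without +Al library 2, and it was also not called without control library 1 or control library 2. The differences in response of Cs3g09040 and Cs3g09030 were 3.88 and 3.45. Cs3g09100 was listed at 0 FPKM in 7 of the 8 libraries.

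The 3 members from Cs3g05290 to Cs3g05310, also on chromosome 3, were lower in +Al roots of both species. Their sum was 49.8 to 54.6 FPKM in *C. sinensis* control roots, 28.0 to 29.5 in *C. sinensis* +Al roots, 44.7 to 46.2 in *C. grandis* control roots and 16.3 to 22.7 in *C. grandis* +Al roots. Cs3g05300, the highest, was at 38.8 and 41.04 FPKM in *C. sinensis* control roots and 21.9 and 22.98 in +Al roots (-0.83 ± 0.07, adjusted p = 0.00087). Its levels in *C. grandis* were 39.2 and 37.6 and 14.2 and 20.1 (-1.18 ± 0.28, adjusted p = 0.00216), or -0.93, adjusted p = 0.0375 without +Al library 1. In *C. grandis* Cs3g05290 and Cs3g05310 had log2 fold changes of -1.58 and -1.45, and none of the 3 calls held without control library 1, control library 2 or +Al library 1. In *C. sinensis* Cs3g05310 fell (-1.09 ± 0.19, adjusted p = 0.00986) and Cs3g05290 missed the fold limit (-0.75). No difference in response was called in the run.

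**Figure D4:**
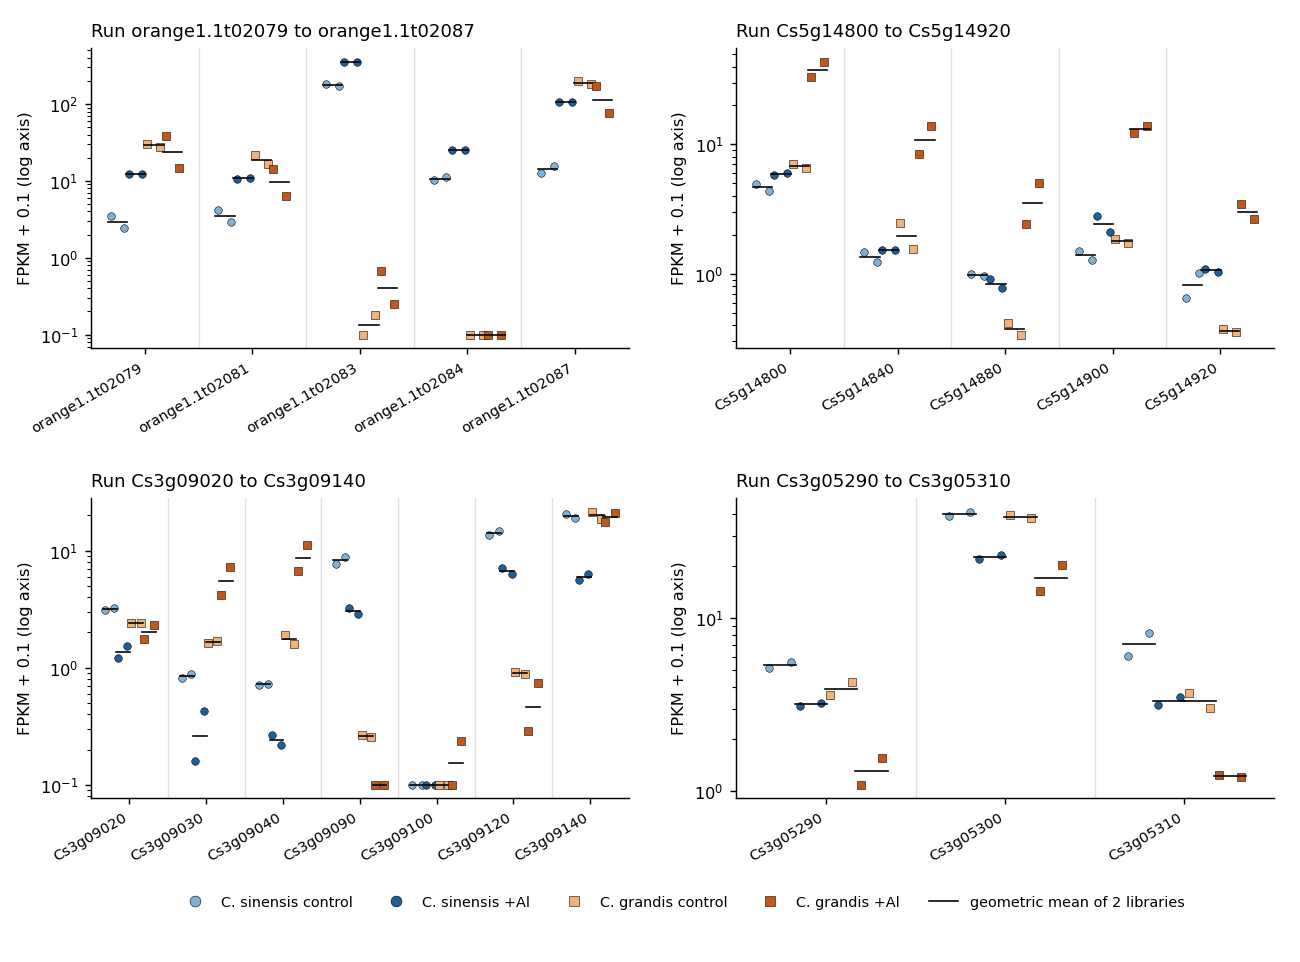
FPKM + 0.1 (log axis) of the members of 4 runs of neighbouring P450 genes, in each of the 8 libraries, with bars for geometric means of 2 libraries. In the run from orange1.1t02079 each gene is higher in +Al than in control roots of C. sinensis, in that from Cs5g14800 each is higher in +Al than in control roots of C. grandis, and in that from Cs3g05290 each is lower in +Al roots of both species.

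In other runs few members passed the fold limit. The 7 members from Cs7g15430 to Cs7g15550 summed to 776 to 813 FPKM in *C. sinensis* control roots, 438 to 447 in *C. sinensis* +Al roots, 538 to 631 in *C. grandis* control roots and 363 to 475 in *C. grandis* +Al roots, lower in +Al roots of both species. Of these, 6 were tested in *C. sinensis*, all 6 with log2 fold changes below 0, and Cs7g15500 alone was called. In *C. grandis* all 7 were tested, with 4 above 0 and 3 below and a median log2 fold change of 0.05. Only Cs7g15540, the highest of the run, was called there. Cs7g15460, another abundant CYP87A gene, was at 37.3 and 35.03 FPKM in *C. sinensis* control roots and 29.4 and 27.8 in +Al roots, and at 93.3 and 105 and 103 and 121 in *C. grandis*. It was not called in either species (-0.34 ± 0.07, adjusted p = 0.0172 in *C. sinensis*, and 0.18 ± 0.23, adjusted p = 0.7 in *C. grandis*). The 8 members from Cs5g06280 to Cs5g06390 summed to 22.4 FPKM in each *C. sinensis* control library, 13.4 in each *C. sinensis* +Al library, 142 to 148 in *C. grandis* control roots and 75.1 to 107 in *C. grandis* +Al roots. Among them Cs5g06320, described as CYP71A1, was at 10.1 and 10.8 FPKM in *C. sinensis* control roots and 4.71 and 5.32 in +Al roots (-1.05 ± 0.12, adjusted p = 0.00245). It was at 3.28 and 2.51 and 4.31 and 8.31 in *C. grandis* (1.04 ± 0.40, adjusted p = 0.074), and the difference was 2.08 ± 0.44, adjusted p = 0.0172. The fall in *C. sinensis* did not hold without control library 2 (adjusted p = 0.0516) or +Al library 1.

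Beside Cs2g03520, described above, further members with roles in sterol, brassinosteroid and suberin synthesis were picked after their values were seen. Cs8g10820, obtusifoliol 14-alpha-demethylase of sterol synthesis, was at 54.4 and 55.6 FPKM in *C. sinensis* control roots, 59.2 and 65.6 in *C. sinensis* +Al roots, 45.9 and 50.6 in *C. grandis* control roots and 34.3 and 36.4 in *C. grandis* +Al roots. It was called in neither species, and the difference in response was -0.63 ± 0.17, adjusted p = 0.0412. In brassinosteroid synthesis, Cs1g24010 (CYP90B1-like, the C-22 hydroxylase in Arabidopsis) had log2 fold changes of 0.45 and -0.003, and Cs1g18360, which by its description oxidises teasterone, of -0.21 and 0.31, in *C. sinensis* and *C. grandis*. Cs8g19970 is described as CYP86A1, which in Arabidopsis makes omega-hydroxy acids of root suberin. It was at 55.7 and 56.5 FPKM in *C. sinensis* control roots and 77.02 and 79.04 in +Al roots (0.47 ± 0.05, adjusted p = 0.00212), and at 24.1 and 29.5 and 21.3 and 17.9 in *C. grandis* (-0.45 ± 0.28, adjusted p = 0.336). The difference was -0.92 ± 0.21, adjusted p = 0.022. Cs7g13930, described as CYP86B1, which acts on longer fatty acids of suberin in Arabidopsis, was at 34.5 and 33.1 FPKM in *C. sinensis* control roots and 56.7 and 57.5 in +Al roots (0.75 ± 0.06, adjusted p = 0.0007), and the difference was not called (-0.51 ± 0.17, adjusted p = 0.0773). The CYP78A3 gene Cs5g01500 had log2 fold changes of -0.47 and 0.96 and a difference of 1.43 ± 0.34, adjusted p = 0.0249. The differences of Cs8g10820, Cs8g19970 and Cs5g01500 were not called without any 1 of the 4 *C. sinensis* libraries, nor without *C. grandis* control library 2.

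Genes that work with P450s were counted by description. Calls of those outside the members were not checked by leaving out libraries or with other settings. Of 15 P450 enzymes described by their reaction rather than by the family name, 12 were tested in *C. sinensis* (2 rose and 1 fell, against 4.46% and 4.06% of all genes) and 11 in *C. grandis* (2 rose and 3 fell, against 5.20% and 7.25%). Cs3g24230, allene oxide synthase, which makes the precursor of jasmonate, was at 238 and 233 FPKM in *C. sinensis* control roots and 363 and 355 in +Al roots (0.61 ± 0.05, adjusted p = 0.000586). Its *C. grandis* levels were 259 and 280.1 and 72.1 and 92.6 (-1.72 ± 0.22, adjusted p = 1.05e-07), and the difference was -2.33 ± 0.18, adjusted p = 0.000524. Cs4g04530, cinnamate 4-hydroxylase of the phenylpropanoid pathway, was at 7.08 and 5.83 FPKM in *C. sinensis* control roots and 15.2 and 13.4 in +Al roots (1.14 ± 0.14, adjusted p = 0.00264), and at 21.4 and 19.6 and 16.4 and 24.3 in *C. grandis* (-0.04 ± 0.29, adjusted p = 0.965).

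Of 10 electron partners (P450 reductases and cytochrome b5 proteins, which pass electrons to P450s), 9 were tested in each species. None was called in *C. sinensis*, where 4.46% of all genes tested rose and 4.06% fell. Only the reductase Cs3g19550 was called in *C. grandis*, where these shares were 5.20% and 7.25%. Whether counts in so short a list differ from these shares was not tested. The difference in response was called higher for 1 of 9 partners and lower for 3, against 6.27% and 11.3% of all genes. The more abundant reductase Cs4g03510 was at 246 and 248 FPKM in *C. sinensis* control roots and 293 and 290.0 in +Al roots, and at 266 and 265 and 154 and 206 in *C. grandis*. Its response differed between the species in the opposite sense to that of Cs3g19550 (-0.82 ± 0.19, adjusted p = 0.0246 against 1.22 ± 0.35, adjusted p = 0.0466). That of Cs3g19550 was not called without any 1 of the *C. sinensis* libraries or of the *C. grandis* control libraries.

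All 7 genes of heme synthesis were tested in both species. Their median log2 fold change was 0.21 in *C. sinensis*, where orange1.1t02279, coproporphyrinogen-III oxidase, rose (1.04 ± 0.11, adjusted p = 0.00167). It was -0.40 in *C. grandis*, where all 7 were below 0 and Cs4g18730, ferrochelatase, which puts iron into the heme ring, fell (-1.30 ± 0.28, adjusted p = 0.000791). The medians of all genes were -0.002 and -0.01. The 1 rise among 7 genes in *C. sinensis* stands beside 4.46% of all genes, and the 1 fall in *C. grandis* beside 7.25%. The difference in response was called lower for 3 of the 7 and higher for none, against 11.3% and 6.27% of all genes. These counts were not tested against the shares. Of 70 UDP-glycosyltransferases, which attach sugars to many products of P450s, 53 were tested in *C. sinensis* (4 rose and 5 fell, against 4.46% and 4.06% of all genes) and 52 in *C. grandis* (4 rose and 8 fell, against 5.20% and 7.25%). Cs8g04920, limonoid UDP-glucosyltransferase, which glucosylates the bitter limonoids of citrus, was at 22.9 and 24.9 FPKM in *C. grandis* control roots and 77.3 and 92.02 in +Al roots (1.82 ± 0.26, adjusted p = 8.17e-07), and at 31.2 and 28.6 and 27.99 and 26.4 in *C. sinensis* (-0.14 ± 0.08, adjusted p = 0.231).

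Control roots of the species also differed in their P450 genes. Of 99 members tested, 21 were higher in *C. grandis*, 21.2% of them against 6.49% of all genes, and 19 were lower, 19.2% against 10.5%. Expression and sequence divergence cannot be told apart here, since *C. grandis* reads were aligned to another species. Cs5g06310, described as CYP71A1, was at 142 and 138 FPKM in *C. grandis* control roots and 11.2 and 10.4 in *C. sinensis* control roots (log2 difference 3.69 ± 0.17, adjusted p = 4.42e-06). Its neighbour Cs5g06320 showed the reverse (-1.83 ± 0.31, adjusted p = 0.00389), but it was not called without *C. sinensis* control library 2 (-1.78). Some other calls of named members in control roots were also lost without some library. orange1.1t02087 was higher in *C. grandis* (3.74 ± 0.32, adjusted p = 0.000108), while orange1.1t00025 was at 11.96 and 11.3 FPKM in *C. sinensis* against 0.0657 and 0.062 in *C. grandis*. Cs7g15460 was higher in *C. grandis* (1.45 ± 0.13, adjusted p = 0.000155), whereas Cs7g15540 of the same run was lower in *C. grandis* by less than the fold limit (-0.82 ± 0.18, adjusted p = 0.0107).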

How the data were processed

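RNA of root tips was sequenced in 8 libraries. As the study's methods state, the authors removed poor reads and, with Bowtie, ribosomal RNA, aligned what was left to *C. sinensis* sequence by TopHat2, whichever the species, and assembled transcripts by Cufflinks. For testing, edgeR 3.0.0 and R 2.1.5 are in the submitters' processing notes. A build is not given in the sources used. The deposited values are FPKM, with no read counts. A listed 0 can be a failed estimate.

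Each comparison was fitted over all genes with limma 3.58.1 (R 4.3.3, trend on mean level) on log2(FPKM + 0.1), two-sided, for genes whose mean reached 1 FPKM in a group, with Benjamini-Hochberg adjustment over all genes tested. Calls needed an adjusted p of at most 0.05 and a log2 change of at least 1, and for differences in response only the adjusted p counted. Within-species fits used 4 libraries and fits of differences all 8. A count test named first in the plan could not be run on FPKM. The fit in *C. grandis* drew each gene's spread strongly towards that of all genes (36.2 prior degrees of freedom against 3.50 in *C. sinensis*), so genes with unlike replicates could be called there. For relative depth, the most frequent ratio between libraries was taken over values under 0.5 FPKM.

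Runs were members on a chromosome with ID numbers at most 50 apart, or 5 for unplaced IDs. Named genes were up to 8 called members with the largest changes per direction and species and the 10 largest differences, with at least 5 FPKM in a group, the 8 highest members, called members of families with a known role, runs with at least 3 called members and the reductase. Cs3g23010, Cs4g14140, Cs5g06310, Cs5g06320, orange1.1t05667 and the genes named from the lists of P450 partners were picked after their values were seen. Members and lists were chosen with earlier results of these data known. The fits were also run on simulated data with independent noise in each library and no library-wide shift, and the outcome is not given here. Tables were made with pandas 2.3.3 and numpy 2.4.6 in Python 3.11.15, and plots with matplotlib 3.10.9. FPKM allow no counting interval.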

Additional observations from a re-analysis of the deposited data

Results flagged for a closer look

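The Al response of 32 named members differed between *C. sinensis* and *C. grandis* by limma's test of the difference, given here on the log2 scale as *C. grandis* less *C. sinensis*. A lower response in *C. grandis* was found for Cs9g17460 (-5.36), Cs3g07440 (-5.17), Cs5g07230 (-4.16), orange1.1t02087 (-3.63), Cs2g03520 (-3.10), orange1.1t01456 (-2.87), orange1.1t02081 (-2.61), orange1.1t02079 (-2.38), Cs3g15590 (-2.08), Cs8g19970 (-0.92) and Cs8g10820 (-0.63). A higher response was found for orange1.1t05688 (5.76, a fitted value that depends on the pseudocount, since *C. sinensis* is listed at 0 FPKM), orange1.1t05536 (5.07, from 2.26 to 8.32 over the alternatives, since it is listed at 0 FPKM in *C. sinensis* +Al roots), Cs8g09390 (4.87), Cs3g09040 (3.88), Cs3g09030 (3.45), Cs5g14880 (3.43), Cs5g14920 (2.68), orange1.1t05667 (2.44), Cs5g14840 (2.29), Cs5g25060 (2.24), Cs5g14800 (2.14), Cs5g06320 (2.08), Cs5g14900 (2.07), orange1.1t00542 (1.81), Cs3g09140 (1.67), Cs7g15500 (1.65), orange1.1t00025 (1.63, with all *C. grandis* libraries near 0 FPKM), Cs5g01500 (1.43), Cs3g19550 (1.22), Cs4g14140 (1.20) and Cs3g21580 (1.12). In 5 of these genes (Cs3g09030, Cs3g09040, Cs5g14880, Cs5g14920 and orange1.1t05688) both *C. sinensis* groups, and in 2 (Cs9g17460 and orange1.1t00025) both *C. grandis* groups, had a mean under 1 FPKM, and the response there was not tested alone.

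The 19 differences that were lost without some library kept their sign in each case. The highest adjusted p without 1 library is given for each. Those of Cs3g19550 (0.167), Cs8g10820 (0.161), Cs8g09390 (0.159), orange1.1t02079 (0.131), orange1.1t00025 (0.129), Cs5g01500 (0.113), Cs4g14140 (0.106) and Cs3g21580 (0.0897) were lost without any 1 of the 4 *C. sinensis* libraries or the 2 *C. grandis* control libraries. Those of Cs8g19970 (0.103), Cs5g06320 (0.0971) and Cs5g14840 (0.0931) were lost without any 1 of the *C. sinensis* libraries or *C. grandis* control library 2, and that of orange1.1t02081 (0.0835) without any 1 of the *C. sinensis* libraries or *C. grandis* control library 1. That of orange1.1t05688 (0.144) was lost without any 1 of the *C. sinensis* or *C. grandis* +Al libraries, and that of orange1.1t05536 (0.0771) without any 1 of the *C. sinensis* libraries. That of orange1.1t00542 (0.160) was lost without *C. sinensis* control library 1, either *C. sinensis* +Al library, either *C. grandis* control library or *C. grandis* +Al library 2. That of Cs3g09030 (0.0795) was lost without any 1 of the 4 control libraries, that of Cs5g25060 (0.0648) without either *C. sinensis* control library or *C. sinensis* +Al library 2, that of Cs5g14920 (0.0541) without *C. sinensis* control library 2 or +Al library 2, and that of Cs5g14900 (0.0532) without *C. sinensis* control library 1.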

How the results depend on the processing

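With 2 libraries per group, counts moved with single libraries, and a group left with 1 library was assumed to vary like the others. Here and above, counts with a library left out stand without those of all genes in the same fits. Whether the share of members called moved more than that of all genes cannot be read from them. Leaving out each library in turn gave 10 to 13 members that rose in *C. grandis* (18 with all), 6 to 16 that fell (16 with all) and 16 to 60 whose response differed between the species (43 with all). It gave 8 to 12 and 15 to 20 members that rose and fell in *C. sinensis*, and 29 to 41 that differed between control roots of the species. Deviations of same-numbered libraries had correlations across genes of -0.0075 (*C. sinensis*) and 0.035 (*C. grandis*), so no shared effect of the replicate number was seen. Whether the libraries were handled in pairs cannot be told from this. With the replicate block, 11 members rose and 20 fell in *C. sinensis*, 15 rose and 11 fell in *C. grandis*, and 36 differed between control roots, all within 1.5 times of the counts without it, while 28 differed in response. Rescaling the libraries, other filters (none, or 5 FPKM), pseudocounts of 1 or 0.01 FPKM and a spread shared by all 8 libraries kept every count within 1.5 times. Single calls of named members still ended. There were 17 with the replicate block, 10 with rescaling and 12 with no filter. The 5 FPKM filter ended 1, and pseudocounts of 1 and 0.01 FPKM ended 12 and 6. Rescaling ended the calls of Cs3g21550, Cs3g24170, Cs7g15540, Cs8g09390, orange1.1t01321, orange1.1t05536 and orange1.1t05809 in *C. grandis*. It also ended the differences in response of Cs8g10820, Cs8g19970 and orange1.1t02079. With the shared spread 9 calls of named members ended, 5 in *C. sinensis* and 4 in *C. grandis* (Cs3g24170, adjusted p = 0.108, Cs8g09390, 0.0731, orange1.1t05536, 0.172, and orange1.1t05809, 0.729). Rescaling together with leaving out *C. grandis* +Al library 1, added after the data were seen, gave 12 members that rose and 13 that fell in *C. grandis* and 53 whose response differed. The difference in response of Cs3g09090, which is near 0 FPKM in *C. grandis*, was 0.05 (not called), 1.004 with a pseudocount of 1 FPKM and -2.64 with one of 0.01 FPKM, both called. DESeq2 was not run, since there are no counts. Depth limits the genes near 0 FPKM most, and 61 members were tested in neither species.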
